A study of Mus musculus with 8 samples.

Results

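Genes of megakaryocytes and platelets were followed in RNA-seq libraries of mouse bone marrow B cells. The set holds 8 genes, Pf4, Ppbp, Itga2b, Gp9, Gp1bb, Gp1ba, Clec1b and Treml1, found by matching the Ensembl identifiers of the deposited count table to symbols. They are 8 of the 54532 genes in that table. The filter on low counts kept 7 of them, each with at least 82 reads in every library, and Gp1bb did not pass it.

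The libraries came from mice that had sham surgery (Sham, 3 libraries) or bilateral ovariectomy (OVX, 3 libraries), a surgical model of menopause. The B cells were sorted from marrow by MACS, a selection with antibody-coated magnetic beads. Neither group carries a named transgene, deletion or drug in the labels. Strain and age of the mice behind these libraries are not given in the sources used here, and the labels do not say whether each library came from a separate animal. The study's legends count as many samples per group as there are libraries, without saying that none was pooled, so p-values measure the spread between these libraries. The series also holds ChIP-seq of HIF-1α with an input, not analysed here. Each library held between 23838775 and 33136701 counts, the highest in OVX replicate 3, and every pair of libraries differed by more than sampling noise (chi-square per degree of freedom from 9.32 to 74.6). All 12 B cell markers were detected in every library, at a summed share of 1.06% to 1.23% of counts, so the labelled cell type had its defining genes.

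Megakaryocytes are the large marrow cells that shed platelets into sinusoids, and platelets carry RNA and protein made by their parent cell. Platelets stop bleeding by binding von Willebrand factor through the GPIb-IX-V complex, by binding fibrinogen through the integrin αIIbβ3, and by releasing granules filled with chemokines and clotting proteins. B cells arise in the same marrow and are not known for these functions.

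**Figure D1:**
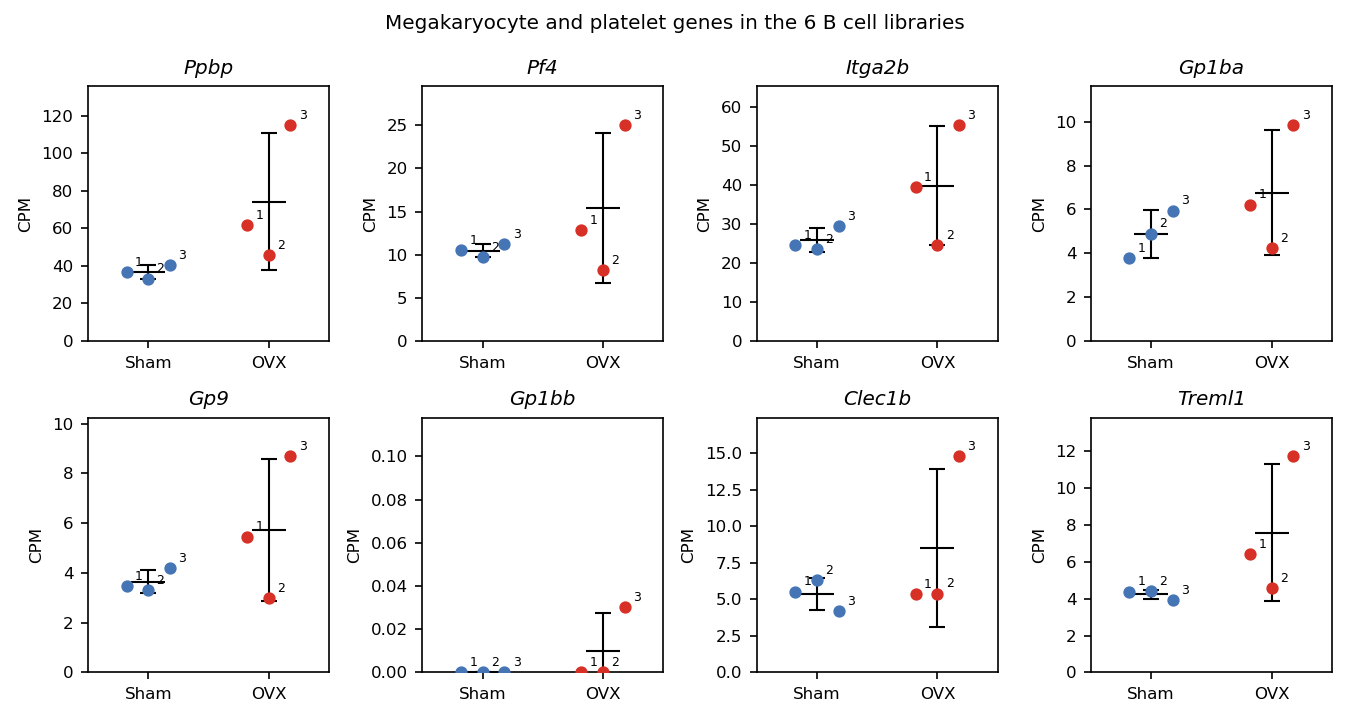
Level of each of the 8 genes in CPM (each gene's counts scaled to a common library total with TMM factors) in the 3 Sham and 3 OVX libraries, with the replicate number beside each point and bars for the mean and SD (n = 3). OVX replicate 3 was the highest library in all panels, with Ppbp at 115 CPM there and at 33.2 to 40.3 CPM in Sham, and Gp1bb had 1 read in all.

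OVX replicate 3 held the highest level of every one of the 7 measured genes, where 13.1% of the 15305 genes tested were highest in that library. Its level was between 2.02 and 3.13 times the Sham mean over the 7 genes, with a median of 2.39. OVX replicate 1 followed with a median of 1.49 times the Sham mean, while OVX replicate 2 had a median of 0.954 times. OVX replicate 1 was the next highest library for 6 of the 7 genes, Clec1b being the exception. In bulk libraries such as these, more cells or platelets of a type and more RNA per cell cannot be told apart.

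The promoters of 5 of the 7 genes with a motif match are shown, those with 2 or more matches. The matches are to the motifs of GATA and ETS factors, both regulators of megakaryocyte genes, or to the TATA box. The sequences are RefSeq's for GRCm38.p6 (mm10), from 250 bases before to 50 bases after the annotated start of transcription, read 5′ to 3′ on the gene's strand. Capitals mark 4 motifs searched on both strands. AGATAA and its variant with a leading T, TGATAA, stand for the GATA factors. AGGAAG stands for the ETS factors, and reads as CTTCCT where it lies on the opposite strand. The TATA box was searched as the letters TATAAA, which read as TTTATA on the opposite strand, where TGATAA reads as TTATCA.

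Ppbp promoter (chr5:90768268-90768567, plus strand): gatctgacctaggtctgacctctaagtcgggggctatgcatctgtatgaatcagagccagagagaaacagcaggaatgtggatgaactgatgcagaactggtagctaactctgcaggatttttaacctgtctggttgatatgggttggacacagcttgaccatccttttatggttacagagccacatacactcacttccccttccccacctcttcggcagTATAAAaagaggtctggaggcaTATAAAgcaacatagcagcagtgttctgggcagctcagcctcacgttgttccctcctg

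Pf4 promoter (chr5:90772185-90772484, plus strand): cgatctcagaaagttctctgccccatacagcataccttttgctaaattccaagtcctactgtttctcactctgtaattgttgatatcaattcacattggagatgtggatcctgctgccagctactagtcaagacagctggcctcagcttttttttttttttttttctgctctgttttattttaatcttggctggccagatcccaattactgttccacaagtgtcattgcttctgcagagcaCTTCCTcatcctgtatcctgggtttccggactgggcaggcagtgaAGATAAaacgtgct

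Itga2b promoter (chr11:102469834-102470133, minus strand): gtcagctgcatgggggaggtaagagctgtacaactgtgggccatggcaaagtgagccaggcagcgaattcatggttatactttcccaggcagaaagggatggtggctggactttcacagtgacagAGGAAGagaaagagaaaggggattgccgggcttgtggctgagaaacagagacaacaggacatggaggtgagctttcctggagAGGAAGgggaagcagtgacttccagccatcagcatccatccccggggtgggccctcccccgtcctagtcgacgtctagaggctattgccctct

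Gp1ba promoter (chr11:70638872-70639171, plus strand): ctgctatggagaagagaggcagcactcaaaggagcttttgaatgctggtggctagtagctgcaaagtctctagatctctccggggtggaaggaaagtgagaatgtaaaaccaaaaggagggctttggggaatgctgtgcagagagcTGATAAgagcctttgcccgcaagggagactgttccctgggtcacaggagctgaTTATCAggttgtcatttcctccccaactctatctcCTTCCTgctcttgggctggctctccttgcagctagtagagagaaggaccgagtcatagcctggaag

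Clec1b promoter (chr6:129397047-129397346, plus strand): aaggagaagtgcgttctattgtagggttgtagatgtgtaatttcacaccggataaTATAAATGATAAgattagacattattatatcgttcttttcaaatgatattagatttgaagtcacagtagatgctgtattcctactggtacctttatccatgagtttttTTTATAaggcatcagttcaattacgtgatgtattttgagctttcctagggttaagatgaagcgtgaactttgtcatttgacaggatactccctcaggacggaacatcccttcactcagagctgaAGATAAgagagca

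Ppbp held TATAAA at bases -30 to -25 before its start and again at -8 to -3. Pf4 held AGGAAG on the other strand at -9 to -4 and AGATAA at bases 37 to 42 after the start. In Itga2b, AGGAAG stood at -125 to -120 and at -43 to -38. Gp1ba held TGATAA at -104 to -99, the same motif on the other strand at -51 to -46, and AGGAAG on the other strand at -16 to -11. Clec1b held AGATAA at 38 to 43 after the start, and far upstream TATAAA at -195 to -190 and TGATAA at -189 to -184 followed each other without a gap. It also held TATAAA on the other strand at -87 to -82. Of the promoters not printed, Gp9 held AGGAAG on the other strand at -16 to -11 and Gp1bb at 21 to 26 after the start. For Gp1ba and Gp9, the start used lies inside the gene's RefSeq record and not at its first base. The Gp9 region is chr6:87777820-87778119, plus strand. Among all 8 promoters, AGGAAG was found in 5 and AGATAA in 2, against 35.4% and 11.2% of the 32851 promoters in the table. TGATAA and TATAAA, which were added after the sequences had been seen, were each found in 2 of the 8, against 9.05% and 13.6% of all promoters. The motifs do not overlap one another. The Treml1 promoter held none of the 4. These letters are a description of the sequence, not of binding.

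The highest log2 fold change of the 7 was that of the granule chemokine Ppbp, and the values of its neighbour Pf4 were lower. Ppbp (ENSMUSG00000029372, chr5:90768518-90770063) encodes the precursor of the platelet chemokine CXCL7, which draws in neutrophils. It had 872, 944 and 1002 reads in the Sham libraries and 1516, 1292 and 3803 in the OVX libraries, in the order of replicates 1 to 3. The lowest OVX library was higher than the highest Sham library. Mean CPM was 74.1 ± 36.4 after OVX against 36.8 ± 3.53 after sham surgery (SD, n = 3 each). The fitted log2 fold change was 1.01, with a standard error of 0.31 and a 95% interval of 0.28 to 1.75. Its adjusted p-value from edgeR, with Benjamini-Hochberg adjustment over the 15305 genes tested, was 0.811, so Ppbp was not called. The two-sided exact permutation test on its level gave p = 0.1, the smallest that 3 libraries against 3 allow, and over the 7 genes this test gave values from 0.1 to 0.6. Without OVX replicate 3 the log2 fold change of Ppbp was 0.55 (standard error 0.155), and OVX replicates 1 and 2 still lay above Sham.

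Pf4 (ENSMUSG00000029373, chr5:90772435-90773383) encodes platelet factor 4, also called CXCL4, a heparin-binding chemokine of the same granules. It lies 2371 bases from Ppbp on the same chromosome. Pf4 had 249, 275 and 280 reads in Sham and 316, 233 and 828 in OVX. OVX replicate 2 was the lowest of the 6 libraries at 8.21 CPM and OVX replicate 3 by far the highest, so the groups overlapped. Mean CPM was 15.4 ± 8.69 after OVX against 10.5 ± 0.789 after sham surgery (SD, n = 3 each). Pf4 had a log2 fold change of 0.56 (95% interval -0.32 to 1.43), which was 0.01 without OVX replicate 3.

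Itga2b (ENSMUSG00000034664, chr11:102453297-102469883) encodes the integrin chain αIIb, or CD41, the chain of the fibrinogen receptor that marks this lineage. It had 582, 673 and 733 reads in Sham and 973, 701 and 1836 in OVX. OVX replicates 1 and 3 lay above all Sham libraries, and OVX replicate 2 at 24.7 CPM lay below Sham replicate 3 at 29.5 CPM. Mean CPM was 39.9 ± 15.4 after OVX against 25.9 ± 3.12 after sham surgery (SD, n = 3 each). The log2 fold change was 0.63 (95% interval -0.01 to 1.26), or 0.31 with OVX replicate 3 left out.

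The GPIb-IX complex, the platelet receptor for von Willebrand factor, is built from the products of Gp1ba, Gp1bb and Gp9. Gp1ba (ENSMUSG00000050675, chr11:70639102-70643986), which encodes the chain that binds the ligand, had 90, 139 and 148 reads in Sham and 153, 120 and 326 in OVX. Gp9 (ENSMUSG00000030054, chr6:87776131-87779786), a small chain that holds the complex at the surface, had 82, 94 and 104 reads in Sham and 134, 85 and 287 in OVX. In both genes OVX replicate 3 was the highest library and OVX replicate 1 the next, and OVX replicate 2 lay among the Sham libraries or below them. The log2 fold change was 0.47 (standard error 0.33) for Gp1ba and 0.65 (standard error 0.37) for Gp9. Without OVX replicate 3 these values were 0.10 and 0.21.

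Gp1bb (ENSMUSG00000050761, chr16:18620319-18622403), whose product is linked by disulphide bonds to that of Gp1ba, had 0 reads in 5 libraries and 1 read in OVX replicate 3. A count of 0 allows a share of up to 1.26e-05% of counts in Sham replicate 1, the shallowest library (3 counts of its total, for counting error only). No fold change was computed for Gp1bb. Its RefSeq record shares 593 bases, chr16:18621811-18622403, with that of Septin5, and how reads in shared bases were counted is not given in the sources used here. Septin5, a cytoskeletal GTPase gene, had 41, 55 and 137 reads in Sham and 65, 19 and 31 in OVX, with Sham replicate 3 the highest. The near absence of Gp1bb reads is therefore a fact of this count table and does not give the level of its RNA.

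The remaining pair are receptors on the platelet surface. Treml1 (ENSMUSG00000023993, chr17:48359916-48367176), which encodes TLT-1, a receptor stored in α-granules, had 104, 125 and 98 reads in Sham and 158, 130 and 388 in OVX. The groups did not overlap for Treml1, with OVX replicate 2 at 4.58 CPM just over the highest Sham library at 4.40 CPM. Mean CPM was 7.58 ± 3.71 after OVX against 4.24 ± 0.262 after sham surgery (SD, n = 3 each). The log2 fold change was 0.84 (95% interval 0.04 to 1.64), or 0.38 with OVX replicate 3 left out.

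Clec1b (ENSMUSG00000030159, chr6:129397297-129405413) encodes CLEC-2, the receptor for podoplanin that signals through Syk. It had 131, 180 and 104 reads in Sham and 132, 153 and 489 in OVX. OVX replicate 3 stood alone at 14.8 CPM, and the other 5 libraries lay between 4.18 and 6.33 CPM with both groups mixed. The log2 fold change of Clec1b was 0.67 (standard error 0.42), and 0.01 without OVX replicate 3. Clec1b was also the gene least like the others, since OVX replicate 1 was at 1.00 times its Sham mean. The RefSeq record of Clec12b spans all 8117 bases of Clec1b, but Clec12b had at most 6 reads in a library.

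A call needed a fold of at least 1.6 together with an adjusted p-value under 0.05. No gene of the 7 met this, and neither did any of the 15305 genes, so the share called was 0% in each direction. The adjusted p-value from edgeR was 0.811 for each of the 7. Without adjustment, edgeR's p-value was under 0.05 for 2 of the 7, Ppbp and Treml1, both higher in OVX, where 1.47% of all genes were higher by that measure. None of the 7 was lower by it, against 2.28% of all genes. DESeq2 called 0 of the 7 and gave 3 of them an unadjusted p-value under 0.05. The OVX libraries all exceeded the Sham libraries for the same 2 genes, against 4.33% of all genes. The opposite order was found for 0 of the 7, against 4.12% of all genes. All 7 had a log2 fold change above 0, as did 48.2% of all genes, and their median was 0.65 beside -0.0081 over all genes.

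These values depended on single libraries, OVX replicates 2 and 3 most of all. Without OVX replicate 3 the median log2 fold change of the 7 genes was 0.21, and all 7 values were still above 0. Without OVX replicate 2 the median was 0.92, and 6 of the 7 had groups that did not overlap, against 6.66% of all genes then tested. The same number, 6 of 7, then had an unadjusted p-value under 0.05 in edgeR. With OVX replicate 3 or any 1 of the Sham libraries left out instead, 1 of the 7 did.

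The 7 genes shared 1 profile over the libraries. After each gene was centred on its own mean, their average on the log2 CPM scale was -0.34, -0.31 and -0.21 in Sham and 0.18, -0.34 and 1.03 in OVX. Pearson's r between 2 of the genes ranged from 0.716, for Clec1b with Gp1ba, to 0.988 over the 21 pairs, with a median of 0.920. These values describe 6 libraries that differ in depth and group, and OVX replicate 3 weighs heavily in each.

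Summed, the reads of the 8 genes made 0.00885%, 0.00875% and 0.00996% of counts in Sham and 0.0138%, 0.00937% and 0.0240% in OVX. The OVX mean was 0.0157% ± 0.00751 and the Sham mean 0.00919% ± 0.000672 (SD, n = 3 each), a ratio of 1.71. The Wilson 95% interval of the OVX replicate 3 share was 0.0235% to 0.0246%, so its gap to the next library, OVX replicate 1, was far beyond counting error. Ppbp alone gave 38.9% to 47.8% of these reads in each library. Without Ppbp the ratio of the group means was 1.52, and OVX replicate 3 was at 2.29 times the Sham mean.

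Pf4 and Ppbp are each other's neighbours on the chromosome. Of the other protein-coding genes next to or overlapping a member, 8 had enough reads to be tested. Their profiles had a Pearson's r with the mean profile of the 7 genes of at most 0.439, and none was highest in OVX replicate 3. Neighbours with too few reads to be tested included 5 that were highest there, among them Cxcl5 and Cldn5. Cxcl5, 6892 bases from Ppbp, had 10, 4 and 5 reads in Sham and 4, 4 and 23 in OVX. Cldn5, as far as 154443 bases from Gp1bb, had 3, 8 and 4 in Sham and 7, 8 and 26 in OVX.

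The wider platelet and megakaryocyte programme was read from 37 other genes grouped by role, all of which passed the filter on low counts. None was called. By edgeR's p-value under 0.05 without adjustment, 9 were higher in OVX and 2 lower, against 1.47% and 2.28% of all genes. A log2 fold change above 0 was found for 27 of the 37, against 48.2% of all genes. That share also stands beside the counts by role below. The groups separated with OVX on top for 5 of the 37, F2rl3, Gnaz, Alox12, Myl9 and Cavin2, against 4.33% of all genes. They separated with OVX below for 0, against 4.12%. The count of 5 was 13 without Sham replicate 3 and 15 without OVX replicate 2, against 7.65% and 6.66% of all genes. Without Sham replicate 1 it was 7, or 18.9% of the 37, against 18.8% of all genes. It was 6 without Sham replicate 2, OVX replicate 1 or OVX replicate 3, against 7.91%, 11.6% and 8.28% of all genes. The median log2 fold change of the 37 was 0.26, and 0.11 without OVX replicate 3. OVX replicate 3 was the highest library for 23 of the 37, against 13.1% of all genes.

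**Figure D2:**
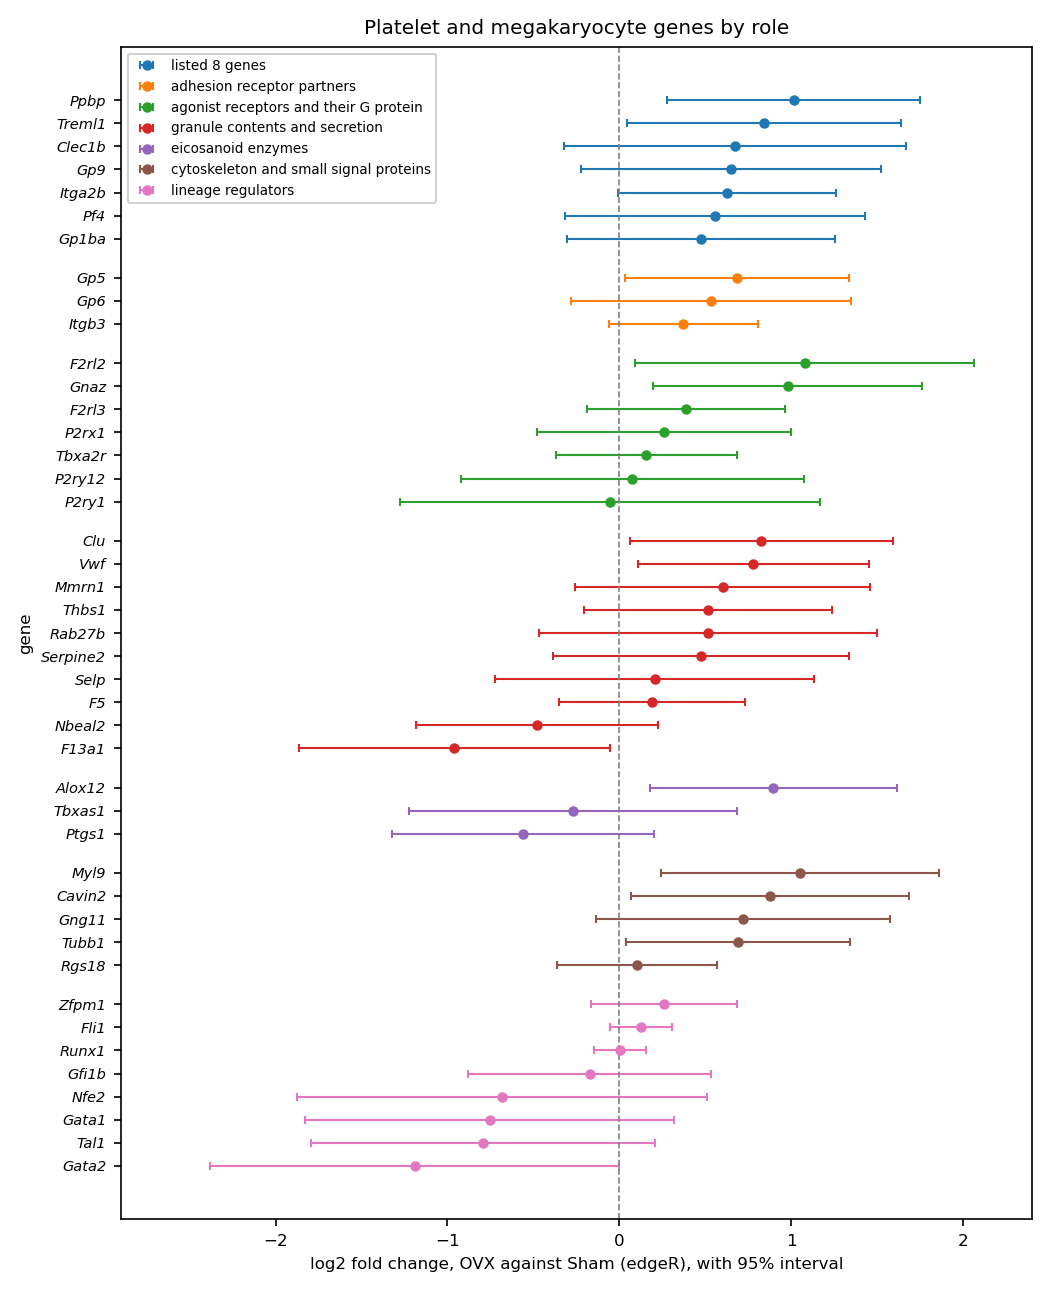
Log2 fold change, OVX over Sham (horizontal axis), with its 95% interval from edgeR's quasi-likelihood fit, for the 7 measured genes and the other genes sorted by role, 1 of them left out; colours mark the roles and the dashed line is 0. Values reach 1.08 for F2rl2 and -1.19 for Gata2, and the lineage regulators at the bottom spread to both sides.

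The partners of the adhesion receptors were highest in the same library as the listed genes. Gp5, the fourth chain of the GPIb-IX-V complex, had 154, 175 and 190 reads in Sham and 233, 213 and 513 in OVX, with a log2 fold change of 0.68 (standard error 0.28). Itgb3, the β3 chain that pairs with αIIb and is also made by other cells, had the lowest value of the 3 at 0.37. Gp6, the collagen receptor, lay between them at 0.53.

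Receptors for platelet agonists were more mixed, with 6 of 7 above 0. F2rl2, the thrombin co-receptor PAR3, led with a log2 fold change of 1.08 (standard error 0.42) and 50, 54 and 75 reads in Sham and 106, 74 and 260 in OVX. The ADP receptor P2ry1 had the lowest, -0.06, with only 22 reads in OVX replicate 2. Gnaz, the G protein Gαz through which adrenaline acts on platelets, had 38, 52 and 38 reads in Sham and 73, 59 and 156 in OVX, a log2 fold change of 0.98. F2rl3, the thrombin receptor PAR4, had non-overlapping groups at a log2 fold change of 0.39. Gnaz belongs to a list that the study drew from these same libraries, so its direction is not independent evidence. Mmrn1, a gene for granule contents, is on that list too, with a log2 fold change of 0.60 (standard error 0.37). Both are counted among the 37.

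Of the 10 genes for granule contents and secretion, 8 had a log2 fold change above 0. Clu, which encodes the chaperone clusterin, had the highest at 0.83 (standard error 0.33), with 107, 131 and 148 reads in Sham and 178, 168 and 447 in OVX. F13a1, the A chain of clotting factor XIII, had the lowest at -0.96 (standard error 0.39). It had 760, 1155 and 2143 reads in Sham and 909, 639 and 733 in OVX, and its highest library was Sham replicate 3. F13a1 is also made by monocytes and macrophages, and their part in its values was not tested.

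The eicosanoid enzymes split. Alox12, the platelet 12-lipoxygenase, had 257, 224 and 281 reads in Sham and 398, 347 and 904 in OVX, a log2 fold change of 0.90 (standard error 0.31) with no overlap of the groups. Ptgs1, or cyclooxygenase-1, had the lowest value at -0.56, and it and thromboxane synthase Tbxas1 were both highest in Sham replicate 2. That library also held the highest summed share of 8 macrophage markers, 0.195% of counts. The part of macrophages in the values of Ptgs1 and Tbxas1 was not tested.

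All 5 genes for the cytoskeleton and small signal proteins had a log2 fold change above 0, with a median of 0.72. Myl9, a myosin light chain of contractile cells and platelets, had the highest at 1.05 (standard error 0.35), with 122, 151 and 127 reads in Sham and 192, 202 and 570 in OVX. Cavin2, a caveolae protein gene, had 111, 155 and 132 reads in Sham and 182, 168 and 495 in OVX, and its groups did not overlap either. Rgs18, a regulator of G protein signalling, had the lowest value at 0.10.

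The lineage regulators showed another pattern. Their median log2 fold change was -0.17, and 4 of 9 were above 0. Gata2, a factor of stem cells, mast cells and early megakaryocytes, had the lowest at -1.19 (standard error 0.51), with 62, 100 and 168 reads in Sham and 79, 33 and 43 in OVX. Sham replicate 3 was the highest library for Gata2, Gfi1b, Gata1, Nfe2 and Tal1, some of which act in erythroid cells as well. Several marker lists of other cells were also highest in that library. Relative to the Sham mean their summed shares there were 1.83 times for neutrophils, 1.67 times for mast cells and basophils, 1.57 times for T and NK cells and 1.38 times for haematopoietic progenitors, and 0.876 times for erythroid cells. Their part in these values was not tested.

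The genes nearest to the mean profile of the 7 were found among 15157 genes with a mean of at least 10 reads, by the root mean square distance between centred log2 CPM values. The 10 nearest were Mpig6b, Src, Gp5, Parvb, Cavin2, Tubb1, Clu, Tm6sf2, Gp6 and Serpine2, at distances from 0.106 to 0.164. Of these, 6 were on the list of 37, as were 13 of the nearest 50, and all 37 were among the 15157 genes ranked. That list was chosen with earlier results of these data known. The nearest, Mpig6b, encodes the inhibitory receptor G6b-B of megakaryocytes and platelets, and had 42, 53 and 57 reads in Sham and 77, 58 and 164 in OVX (r = 0.978). Src, a tyrosine kinase that is abundant in platelets, followed with r = 0.983. Parvb, a link between integrins and actin, had 408, 497 and 447 reads in Sham and 565, 490 and 1171 in OVX (r = 0.999), and like Gnaz it is on the list that the study drew from these libraries. Tm6sf2, known from lipid export in liver, had between 15 and 43 reads, few enough for its profile to be uncertain. Each r describes 6 points, and 0.429% of the ranked genes had an r over 0.9.

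**Figure D3:**
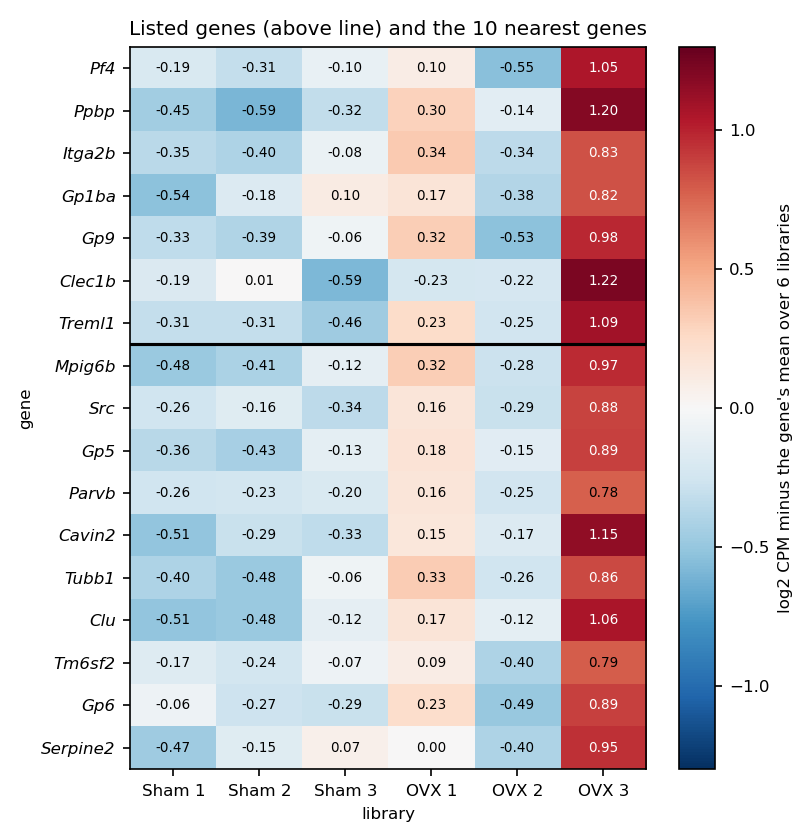
Centred log2 CPM (colour scale and printed value: log2 CPM minus the gene's mean over the 6 libraries) of the 7 measured genes, above the line, and of the 10 genes nearest to their mean profile, below it, in each library. OVX replicate 3 is the highest column in every row, and OVX replicate 2 is below 0 in every row.

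Markers of other marrow cells were summed in the same way. The 6 stroma markers, among them Cxcl12 and Lepr of the reticular cells around sinusoids, had the profile most like the megakaryocyte genes. Their share was 1.16, 0.758 and 1.08 times the Sham mean in Sham and 1.32, 0.884 and 2.65 times in OVX, within a range of 0.00171% to 0.00597% of counts. Of the 6, 5 were highest in OVX replicate 3, and none was at 0 in any library. Cxcl12 had 444, 342 and 378 reads in Sham and 517, 445 and 1508 in OVX, which placed it 32nd in nearness to the 7 genes. It gave 1508 of the 1978 stroma reads in OVX replicate 3, so the summed share follows Cxcl12 above all. Lepr ranked 55th, Adipoq 65th and Col1a2 282nd, while Col1a1 and Col3a1 ranked 11646th and 12207th, and Col1a1 was highest in Sham replicate 3.

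Endothelial markers had shares of 0.884, 1.49 and 0.624 times the Sham mean in Sham and 0.620, 0.671 and 1.47 times in OVX, so Sham replicate 2 was as high as OVX replicate 3. Macrophage markers were at 0.802, 1.74 and 0.462 times in Sham and 0.423, 0.477 and 1.44 times in OVX. Sham replicate 2 had the highest macrophage share, while its share of the megakaryocyte genes was 0.952 times the Sham mean. Erythroid markers, from the lineage closest to megakaryocytes, were at 0.880 times the Sham mean in OVX replicate 3, and their highest share was in Sham replicate 2. Neutrophil markers were at 0.235 times in OVX replicate 3 and highest in Sham replicate 3. The B cell markers stayed between 0.970 and 1.13 times. The part of stroma and other cells in the megakaryocyte values was not tested.

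**Figure D4:**
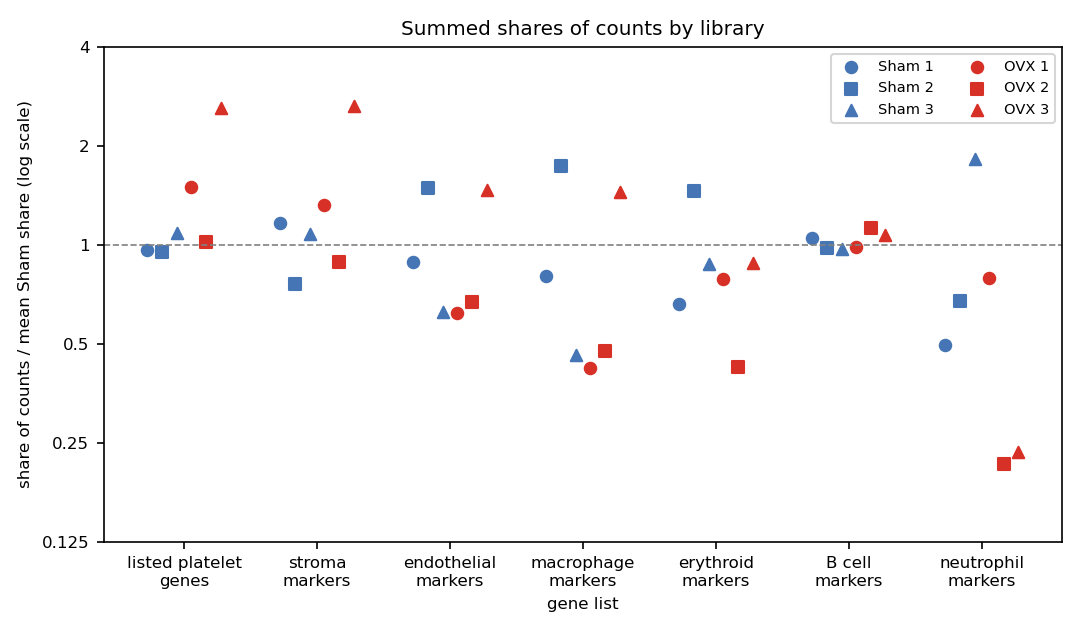
Summed share of counts of the 8 megakaryocyte and platelet genes and of markers of other cells in each library, divided by the mean Sham share of the same list (log axis; the dashed line is 1). In OVX replicate 3 the platelet genes were at 2.61 and the stroma markers at 2.65 times the Sham mean, and neutrophil markers at 0.235 times.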

How the data were processed

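The 3 Sham and 3 OVX RNA-seq libraries were grouped as labelled. The authors deposited raw read counts per Ensembl gene. The submitters' processing notes name CASAVA, Bowtie 0.12.2 and mm10. The counting tool, annotation and strand setting are not given in the sources used here. Symbols were matched for 54409 of 54532 identifiers, and coordinates and promoters are from RefSeq GRCm38.p6.

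Genes kept by filterByExpr (15305) were compared with edgeR 4.0.16 in R 4.3.3 (TMM factors, quasi-likelihood test, Benjamini-Hochberg adjustment), with a call at 1.6-fold and an adjusted p-value under 0.05. CPM used a prior count of 2 on the log2 scale. The standard error is the log2 fold change divided by the square root of F. Each member also had an exact permutation test (two-sided) on its log2 CPM. Tests were tried on simulated counts first. DESeq2 1.42.0 and limma-voom 3.58.1 were alternatives. The members, lists and call rule were chosen with earlier results of these data known. Named in the text are the 8 genes, the highest, lowest and non-overlapping genes of each role except 1 gene that is not reported here, and the 10 nearest profiles, with a few others chosen after their values were seen: Gp6, Gata1, Nfe2, Tal1, Gfi1b, Tbxas1, Cxcl5, Cldn5 and the stroma markers. Counts are reads without molecular identifiers, and the Wilson intervals of the shares cover counting error only. The intervals of the log2 fold changes are from edgeR's quasi-likelihood fit and also reflect the spread between libraries.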

Additional observations from a re-analysis of the deposited data

How the results depend on the processing

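No gene of the 7 and none of the 37 was called under any of the alternatives (DESeq2, limma-voom, upper-quartile factors, library size only, 12 B cell markers as the scale, no filter, a mean of at least 10 counts, the replicate block, no fold threshold, and each library left out in turn). All 98 log2 fold changes of the 7 genes, from 14 alternatives each, were above 0, and their lowest adjusted p-value was 0.285. With a library left out, the median of the 7 ranged from 0.21 (without OVX replicate 3) to 0.92 (without OVX replicate 2), that of the 37 from 0.11 to 0.46, and the difference in summed share from 0.00239 to 0.00972 percentage points (0.00654 with all libraries, 0.00287 without Ppbp). Scaling on the B cell markers moved the median of all genes by -0.103 and gave a median of 0.56 for the 7. The number of the 7 at an unadjusted p-value under 0.05 was 2, 3 with DESeq2, 1 with limma-voom or the B cell scale, and 1 to 6 with a library left out. Over all genes that number was 574, 1269 without the filter, 2698, 360 and 286 with Sham replicate 1, 2 or 3 dropped, and 988, 233 and 411 with OVX replicate 1, 2 or 3 dropped. Same-numbered libraries did not deviate together (r from -0.410 to -0.189). At 3 libraries per group, this does not settle whether the numbers pair them. With the replicate block, the median of the 7 was 0.53, that of the 37 was 0.28, 2 of the 7 and 206 of all genes had an unadjusted p-value under 0.05, and 0 were called. Without OVX replicate 3, 21 of the 37 (56.8%) were above 0, against 48.5% of all genes then tested. Without OVX replicate 2, 15 of the 37 had every OVX library above every Sham library, against 6.66% of all genes then tested. With 1 read in all, Gp1bb could not be compared.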

Other observations

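Past the 10 nearest genes, the ranking by profile held further genes known from platelets that were on no list here. They were picked after their values were seen and are given as values only. Slc6a4, the serotonin transporter that loads platelets, ranked 21st with 70, 78 and 107 reads in Sham and 122, 76 and 261 in OVX. Slc35d3, a gene needed for platelet dense granules, ranked 18th with 12 to 43 reads. Cd226, a receptor also found on T and NK cells, ranked 16th with 62, 82 and 73 reads in Sham and 89, 100 and 201 in OVX, and its groups did not overlap. F11r, the junctional adhesion molecule of platelets and endothelium, ranked 17th with r = 0.988. Tspan9, a tetraspanin of megakaryocytes, ranked 34th with a log2 fold change of 0.93 (standard error 0.38). Itga2, the collagen-binding integrin chain, ranked 36th with 154 reads in OVX replicate 3 and 49 to 77 in the other libraries.

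Other genes in that stretch, also picked after their values were seen and on no list here, are known from stroma and matrix. Timp3 ranked 11th, Ltbp1 14th, Igfbp5 22nd and Bgn 37th, while Col1a1 and Col3a1 of the stroma list ranked 11646th and 12207th, so these 4 say nothing of stroma genes as a group. Igfbp5 had 188, 150 and 201 reads in Sham and 237, 201 and 663 in OVX, and Bgn had 51, 43 and 43 in Sham and 58, 45 and 199 in OVX.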
